A study of Mus musculus with 16 samples.

Results

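*Cdh1* and 8 other genes of periportal hepatocytes, most of them enzymes of nitrogen and amino acid metabolism, were followed across 16 mouse livers to see whether the *Cdh1* difference between genotypes went with that of the other genes. The list held 10 genes (*Cdh1*, *Gls2*, *Hal*, *Sds*, *Pck1*, *Cyp2f2*, *Arg1*, *Ass1*, *Cps1* and *Hsd17b13*), of which 9 were found on the array through the RefSeq accession of the probe, among 13305 named genes tested. *Pck1* was not analysed here. Each of the 9 had 1 probe, and each probe was well above background on all 16 arrays.

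The 16 male mice were wild type (WT, C57BL/6J) or carried the germline null allele Gadd45βtm1Flv (KO). The KO stock is named B6;129S6-Gadd45βtm1Flv/J, while the study elsewhere places the null mice on C57BL/6J, so the strain background of the genotypes cannot be told apart from the allele. Every mouse, controls included, was injected at 5 weeks of age with 90 mg/kg of N-diethylnitrosamine (DEN), which initiates liver tumors, and livers were collected at 57 weeks. The DEN + PB groups also drank phenobarbital (PB), an activator of the nuclear receptor CAR and a tumor promoter, at 0.5 g/l from 7 weeks. RNA came from liver regions outside tumors, 1 mouse per array, which gave 4 groups of 4 arrays. They are called WT DEN and KO DEN, without PB, and WT DEN + PB and KO DEN + PB. No group was free of DEN.

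In the liver lobule, blood enters at the portal tract and leaves at the central vein, and hepatocytes differ along that path. Hepatocytes near the portal tract carry out most of the urea synthesis, gluconeogenesis and amino acid breakdown, while those around the central vein make glutamine and much of the cytochrome P450. *Cdh1* encodes E-cadherin, the adhesion molecule of epithelial adherens junctions. In liver E-cadherin is found on periportal hepatocytes and on bile duct cells, whereas the enzymes on the list are mainly hepatocyte products.

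The genotype label and the treatment left their marks in the libraries. *Gadd45b* was well above background on all 8 WT arrays and on 0 of 8 KO arrays. *Cyp2b10*, the classic CAR target, was between -3.02 and 0.75 on the DEN arrays and between 4.72 and 6.12 on the DEN + PB arrays. These and all levels below are log2 signals relative to the 75th percentile of the array, so that 0 is the level that 75% of the probes on that array do not exceed. The 6 hepatocyte markers matched (*Alb* and *Apoa1* among them) were well above background on all arrays. Between 58.3% and 67.7% of the spots were well above background, and the number of arrays, 4 per group, limits the precision. *Gls2*, *Hal* and *Arg1* lie on mouse chromosome 10, as does the inactivated *Gadd45b*, *Cdh1* lies on chromosome 8, and the other members are on chromosomes 1, 2, 5 and 7.

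*Cdh1* and 4 of the 8 enzymes differed between genotypes in opposite directions in the PB-treated livers. *Cdh1* was 6.23-fold lower in KO than in WT livers, a log2 difference of -2.64 ± 0.55 (SE of the fit, 4 against 4 arrays; adjusted p = 0.00784). *Sds*, *Hal*, *Ass1* and *Gls2* were 2.22-fold, 1.74-fold, 1.67-fold and 1.66-fold higher. So 5 of the 9 members passed the test there, 4 higher and 1 lower, where 7.61% of all tested genes passed (1.76% higher and 5.85% lower). Passing means an adjusted p under 0.05 from limma with the Benjamini-Hochberg adjustment over all probes tested and a change of at least 1.5-fold. Without PB no member passed. In a bulk liver sample fewer cells of a type and less RNA per cell cannot be told apart.

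**Figure D1:**
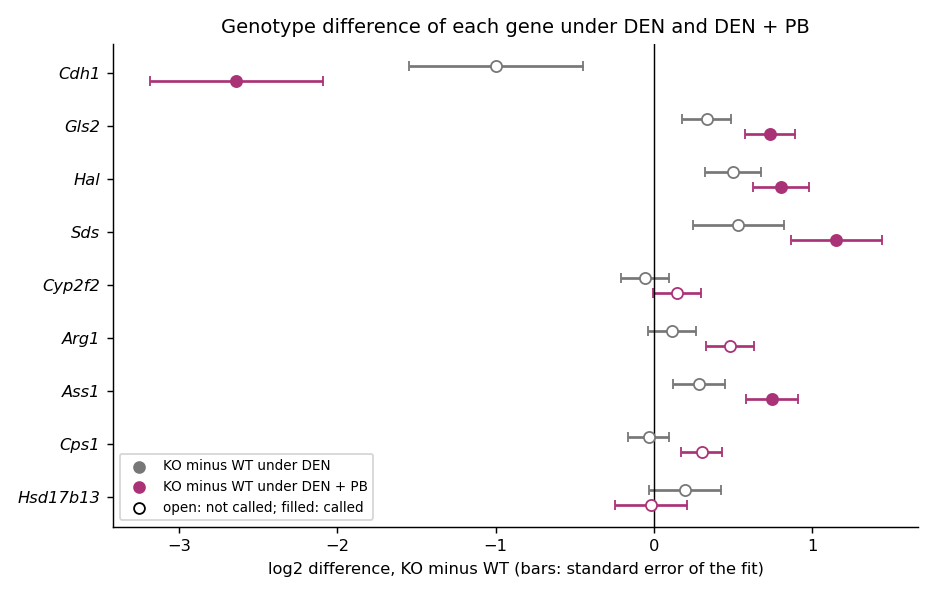
The log2 difference between KO and WT livers (x axis) of each gene (y axis) under DEN alone (grey) and under DEN + PB (purple), with the standard error of the fit over 16 arrays as bars and filled points for genes that passed the test. *Cdh1* lies at -0.998 and -2.64, while *Gls2*, *Hal*, *Sds* and *Ass1* lie between 0.73 and 1.15 under DEN + PB.

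*Cdh1* itself was read on 10 replicate spots per array, whose signals varied by a coefficient of variation of 3.31% to 10.9% within an array. In WT DEN livers its level was 0.74, 1.70, 1.79 and 1.63, and in WT DEN + PB livers it was 2.32, 2.39, 2.56 and 1.45. In KO DEN livers it was 0.94, 1.42, -1.68 and 1.19, and in KO DEN + PB livers it was 0.50, -1.14, -0.31 and -0.89. All 4 KO DEN + PB arrays lay below all 8 WT arrays, while 3 of the 4 KO DEN arrays lay within the range of the WT DEN group and the remaining one lay below every other array. The group means were ordered WT DEN + PB (2.18 ± 0.50, SD, n = 4), WT DEN (1.47 ± 0.49), KO DEN (0.47 ± 1.45) and KO DEN + PB (-0.46 ± 0.73). No pair of neighbours in that order differed beyond its spread, with adjusted p of 0.899 for PB in WT, 0.323 for KO against WT under DEN and 0.56 for PB in KO.

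The *Cdh1* difference between genotypes under DEN + PB varied in size between slides. Each of the 4 slides carried 1 WT and 1 KO array of the DEN + PB groups. KO minus WT was -3.27, -0.95, -3.46 and -2.87 in turn. These groups did not overlap, so a value below 0 on every slide was fixed beforehand and is no further check. The difference between the group means ranged from -2.96 to -2.41 when single arrays were left out, with adjusted p up to 0.0303. With normexp background correction in place of the processed signal the difference was -2.02 and its adjusted p was 0.0799. The exact permutation test of 4 against 4 arrays has 70 assignments and gave p = 0.0286, the smallest value this design allows. The response of *Cdh1* to PB was 0.71 ± 0.55 in WT and -0.93 ± 0.55 in KO livers, and the difference of those responses, 1.64 ± 0.77, had an unadjusted p of 0.0498 and an adjusted p of 0.828. Without KO DEN replicate 3, the array at -1.68, the PB response in KO livers was -1.65 with an adjusted p of 0.0354.

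*Gls2*, *Hal* and *Sds* take part in amino acid breakdown. *Gls2* encodes liver-type glutaminase, which splits glutamine into glutamate and ammonia. Its level was 6.12, 5.63, 5.91 and 5.76 in WT DEN, 5.57, 5.30, 5.16 and 5.38 in WT DEN + PB, 6.13, 6.29, 6.29 and 6.05 in KO DEN, and 6.28, 6.20, 6.14 and 5.72 in KO DEN + PB livers. The WT DEN + PB arrays were the lowest and overlapped with neither KO group nor with WT DEN. KO minus WT was 0.73 ± 0.16 under DEN + PB (adjusted p = 0.00911) and 0.33 ± 0.16 under DEN (adjusted p = 0.241).

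*Hal* encodes histidine ammonia-lyase, the first enzyme of histidine breakdown. Its level was 5.60, 5.53, 5.41 and 5.30 in WT DEN, 5.18, 4.74, 5.21 and 5.05 in WT DEN + PB, 5.98, 6.20, 6.06 and 5.59 in KO DEN, and 5.95, 5.97, 6.07 and 5.39 in KO DEN + PB livers. All 8 KO arrays lay above all 4 WT DEN + PB arrays, and the KO and WT groups under DEN overlapped by 1 array. KO minus WT was 0.80 ± 0.18 under DEN + PB (adjusted p = 0.0117) and 0.50 ± 0.18 under DEN (adjusted p = 0.128).

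*Sds* encodes serine dehydratase, which turns serine into pyruvate for gluconeogenesis. Its level was 4.25, 3.36, 2.85 and 3.48 in WT DEN, 3.86, 3.105, 2.86 and 3.97 in WT DEN + PB, 4.32, 3.67, 4.13 and 3.95 in KO DEN, and 4.34, 4.66, 4.48 and 4.93 in KO DEN + PB livers. The KO DEN + PB arrays were higher than all 12 other arrays. KO minus WT under DEN + PB was 1.15 ± 0.29 with an adjusted p of 0.0226, which became 0.0773 at most when single arrays were left out: it missed the threshold without WT DEN + PB replicates 2 or 3 and without KO DEN + PB replicates 2 or 4. The PB response of *Sds* in KO livers, 0.58 ± 0.29, did not pass (adjusted p = 0.441), although all 4 KO DEN + PB arrays lay above the KO DEN arrays, as was so for 4.58% of all tested genes.

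*Cps1*, *Ass1* and *Arg1* belong to the urea cycle. *Ass1* encodes argininosuccinate synthase, which joins citrulline and aspartate. Its level was 7.82, 7.47, 7.26 and 7.48 in WT DEN, 7.38, 6.93, 7.10 and 6.62 in WT DEN + PB, 7.78, 7.63, 7.88 and 7.88 in KO DEN, and 7.84, 7.86, 7.69 and 7.62 in KO DEN + PB livers. The KO arrays lay between 7.62 and 7.88, and 3 of the 4 WT DEN + PB arrays were lower than every other array in the series. KO minus WT was 0.74 ± 0.16 under DEN + PB (adjusted p = 0.0116) and 0.28 ± 0.16 under DEN (adjusted p = 0.353).

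*Arg1* encodes arginase 1, the last enzyme of the cycle. Its level ran from 6.27 to 6.85 in WT DEN, 5.96 to 6.50 in WT DEN + PB, 6.60 to 6.82 in KO DEN and 6.64 to 6.81 in KO DEN + PB livers. The 2 DEN + PB groups did not overlap, but the difference of 0.48 ± 0.15 had an adjusted p of 0.0684 and was under 1.5-fold. *Cps1* encodes carbamoyl phosphate synthetase 1, which brings ammonia into the cycle. It ran from 6.78 to 6.89 in WT DEN + PB and from 6.92 to 7.34 in KO DEN + PB livers, again without overlap, and the difference of 0.30 ± 0.13 had an adjusted p of 0.174. In this comparison the groups did not overlap for 7 members, 6 higher in KO (*Gls2*, *Hal*, *Sds*, *Arg1*, *Ass1* and *Cps1*) and *Cdh1* lower, against 7.46% and 9.85% of all tested genes in those directions.

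*Cyp2f2*, a cytochrome P450 of periportal hepatocytes, and *Hsd17b13*, an enzyme of the lipid droplet surface, showed no difference beyond their spread. *Cyp2f2* ran from 7.53 to 8.14 in WT DEN + PB and from 7.73 to 8.06 in KO DEN + PB livers, and KO minus WT was 0.15 with a 95% interval from -0.17 to 0.47. *Hsd17b13* ran from 4.56 to 5.37 and from 4.37 to 5.28, and KO minus WT was -0.02 with an interval from -0.50 to 0.46. These intervals bound the differences and do not show that the levels were equal.

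**Figure D2:**
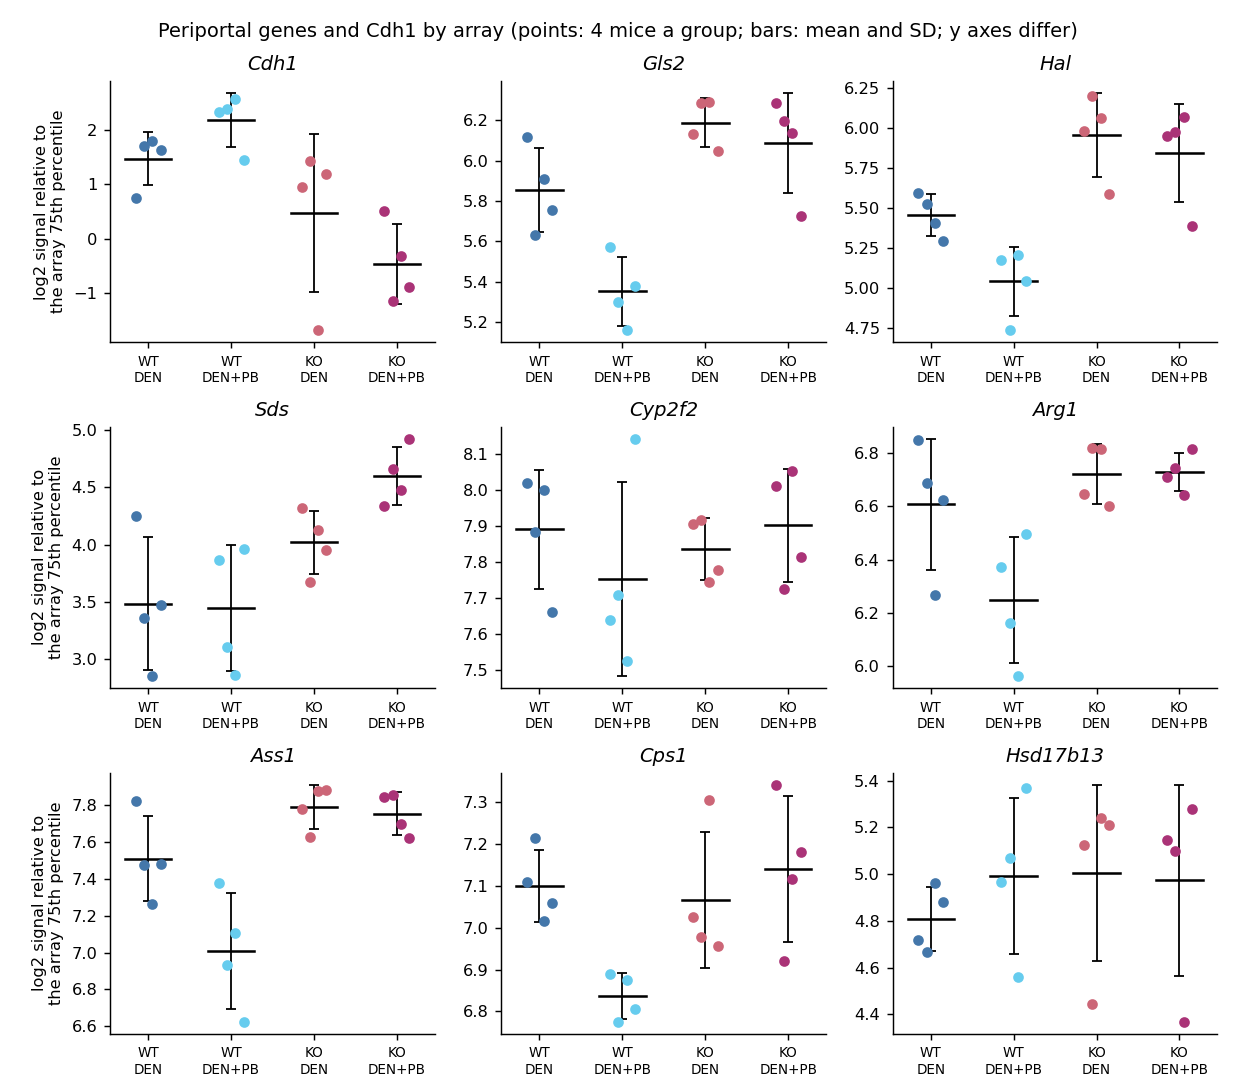
Level of the 9 genes on each array, as log2 signal relative to the 75th percentile of the array (y axes, different for each gene), in the 4 groups (x axis), with 4 points per group and black bars for the mean and SD. *Cdh1* was lowest in KO DEN + PB livers (mean -0.46), whereas *Gls2*, *Hal* and *Ass1* were lowest in WT DEN + PB livers (means 5.35, 5.04 and 7.01).

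Of the 4 genes that were higher in KO livers under DEN + PB, RefSeq promoter sequence (GRCm38.p6) was at hand for *Hal* and *Ass1*. These 2 are shown because both genes passed the test there and had sequence at hand. The 250 bases before each start site follow, 5′ to 3′ on the strand of the gene, from chr10:93488518-93488767 (plus strand) for *Hal* and chr2:31470020-31470269 (plus strand) for *Ass1*. Capitals mark exact matches to a TATA motif (TATAA), a GC box (GGGCGG), an E-box (CACGTG) or a CRE half-site (TGACG), each searched on both strands.
Hal: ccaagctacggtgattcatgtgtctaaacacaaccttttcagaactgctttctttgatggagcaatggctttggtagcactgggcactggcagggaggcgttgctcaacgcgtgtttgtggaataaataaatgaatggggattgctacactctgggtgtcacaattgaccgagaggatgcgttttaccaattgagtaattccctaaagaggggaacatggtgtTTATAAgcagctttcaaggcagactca
Ass1: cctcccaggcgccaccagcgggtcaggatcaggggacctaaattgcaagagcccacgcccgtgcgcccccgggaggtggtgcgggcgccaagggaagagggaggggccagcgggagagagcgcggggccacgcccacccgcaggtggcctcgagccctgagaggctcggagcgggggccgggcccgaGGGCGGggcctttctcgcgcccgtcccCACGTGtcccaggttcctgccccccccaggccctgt
The *Hal* window held TATAA and its reverse complement TTATA, which overlap, ending 21 and 22 bases before the start. The *Ass1* window held a GC box 57 bases and an E-box 30 bases before the start. *Hsd17b13* (chr5:103977389-103977638, minus strand) held 1 CRE half-site, and *Cyp2f2* (chr7:27119705-27119954, plus strand) held none of the 4 motifs. Among 32851 RefSeq windows of that length, 22.8% held the TATA motif, 32.7% the GC box, 6.02% the E-box and 17.8% the CRE half-site. The windows of *Hal* and *Ass1* shared none of these matches, and their GC contents were 45.6% and 75.6%.

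The genotype differences of the enzymes were also read within slides. KO minus WT under DEN + PB was above 0 on all 4 slides for *Gls2* (0.42 to 0.98), *Hal* (0.65 to 0.90), *Sds* (0.37 to 1.82), *Ass1* (0.48 to 1.22), *Arg1* (0.21 to 0.68) and *Cps1* (0.03 to 0.53). The groups compared did not overlap for these genes, so that sign was fixed beforehand and is no further check. KO minus WT was of mixed sign for *Cyp2f2* (-0.13 to 0.53) and *Hsd17b13* (-0.22 to 0.21). *Cdh1* and *Sds* both had their smallest difference on slide 2.

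**Figure D3:**
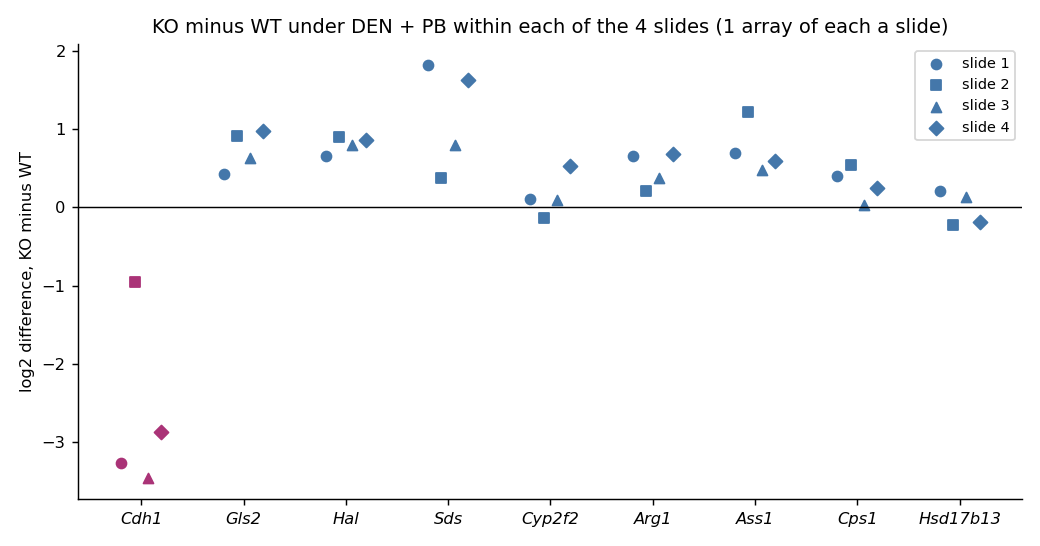
KO minus WT under DEN + PB (y axis, log2) for each gene (x axis) within each of the 4 slides, 1 array of each genotype per slide, marker shapes standing for slides. *Cdh1* was below 0 on every slide (-3.46 to -0.95) and *Hal* above 0 on every slide (0.65 to 0.90). Both signs follow from groups that did not overlap.

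How far the enzymes stood above the rest depended on how the arrays were processed. The median difference between KO and WT under DEN + PB was 0.61 over the 8 enzymes and 0.03 over all tested genes. In the deposited series table, which was not scaled between arrays, the median over all probes moved to -0.29. There *Gls2*, *Hal*, *Sds* and *Ass1* were at 0.39, 0.46, 0.81 and 0.41 with adjusted p between 0.225 and 0.513, and *Cps1* and *Cyp2f2* turned to -0.04 and -0.19. With quantile normalization 3 members passed: *Cdh1*, *Hal* and *Sds*. With normexp background correction 0 passed, at 1.32, 1.02, 0.98 and 0.97 for *Sds*, *Hal*, *Ass1* and *Gls2* with adjusted p between 0.231 and 0.313. Under that setting 50 probes passed over the whole array, beside 1648 of 24455 with the main processing. When spots of outlying background were left out of normexp, 4 members passed higher and 1 lower. The difference between *Cdh1* and another gene on the same array is the same with the 75th percentile and with no scaling, though not with quantile normalization or normexp, and it was added after the data had been seen. *Cdh1* minus each of the 8 enzymes was lower on every KO DEN + PB array than on any WT DEN + PB array. The change in that quantity from WT to KO ran from -3.79 (*Sds*) to -2.62 (*Hsd17b13*). All 8 values share the *Cdh1* levels, which did not overlap between these groups, so they restate that difference and are given with no test. Under DEN alone the change ran from -1.53 to -0.94, and the groups overlapped for all 8 enzymes.

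Within each genotype no member passed the test for PB. In WT livers 0 of 9 passed, where 0.737% of all tested genes did, and 4 (*Gls2*, *Ass1*, *Arg1* and *Hal*) had an unadjusted p under 0.05. Their PB responses were -0.50, -0.50, -0.36 and -0.41, and 7 of 9 members had a response below 0 with *Cdh1* (0.71) and *Hsd17b13* (0.18) above. The groups did not overlap for *Gls2*, *Hal* and *Cps1*, all lower with PB, as was so for 1.95% of all tested genes in that direction. In KO livers 0 of 9 passed, where 2.13% did, and none had an unadjusted p under 0.05. There the PB responses of the 7 enzymes other than *Sds* lay between -0.11 and 0.07.

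No member passed for KO against WT under DEN alone, where 2.76% of all tested genes did. *Hal* and *Gls2* had an unadjusted p under 0.05, and the median over the 9 members was 0.20, beside -0.04 over all genes. For the difference of the PB responses between genotypes, 0 of 9 members and 0% of all tested genes passed, and *Cdh1* was the 1 member with an unadjusted p under 0.05. That difference was below 0 for 7 of 9 members and above 0 for *Cdh1* and *Hsd17b13*. The comparisons share groups: the WT DEN + PB arrays enter both the PB response in WT and the genotype difference under DEN + PB.

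The other periportal genes were looked at as lists that were drawn up with earlier results of these data known. Under DEN + PB, 1.76% of all tested genes passed as higher in KO and 5.85% as lower. Of 26 further periportal genes 6 passed there, all higher in KO, with a median difference of 0.33 over the 26. The 4 largest were *Etnppl* (0.90 ± 0.24), an enzyme of phosphoethanolamine breakdown, *Pigr* (0.86 ± 0.16), the receptor that carries IgA into bile, *Asl* (0.81 ± 0.21), the urea cycle enzyme that follows *Ass1*, and *Slc7a2* (0.80 ± 0.20), a transporter of arginine and other cationic amino acids. All 10 urea cycle and ammonia genes were on the higher side and 3 passed (*Asl*, *Ass1* and *Gls2*). Of 20 genes of gluconeogenesis and amino acid breakdown 7 passed, all higher, led by *Sds*, *Got1* (0.88 ± 0.17), the cytosolic aspartate aminotransferase, *Hal* and *Prodh* (0.71 ± 0.16), the first enzyme of proline breakdown. These 3 lists overlap with each other and with the members. In the unscaled series table none of their genes passed and their medians were -0.01, 0.05 and 0.13. With normexp none passed either, and the medians were 0.55, 0.58 and 0.66. Without spots of outlying background, normexp gave 4, 3 and 4 genes passing, all higher, with medians of 0.27, 0.24 and 0.39.

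Genes of the opposite zone also lay mostly above 0, 15 of 18 under DEN + PB, where 7132 of all 13305 tested genes did. Of these 18 pericentral genes 1 passed, *Slc1a2* (0.73 ± 0.19), a glutamate transporter, and it was higher in KO, as were 1.76% of all tested genes that passed in that direction. The median over the pericentral list was 0.35, next to 0.33 for the periportal list. None of the 10 transcriptional regulators of the periportal program and none of the 6 general hepatocyte markers passed, with medians of 0.46 and 0.30. In the unscaled series table the medians of the pericentral, regulator and hepatocyte lists were 0.01, 0.12 and -0.04. With normexp they were 0.49, 0.55 and 0.51.

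Of 12 genes of adherens junction partners of E-cadherin 0 passed under DEN + PB, and their median was 0.10. *Cdh2*, which encodes N-cadherin, the other classical cadherin of hepatocytes, is named after its values were seen: it differed by 0.51 ± 0.15 with an adjusted p of 0.0468 and a change under 1.5-fold. Its level was 1.85 to 2.01 in WT DEN + PB and 2.23 to 2.52 in KO DEN + PB livers. *Ctnnb1*, which encodes the beta-catenin that binds E-cadherin, was at -0.22 ± 0.18 (adjusted p = 0.478). None of 6 genes of known *Cdh1* repressors passed, and their median was -0.11.

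Most markers of several other cell types were, like *Cdh1*, lower in KO livers under DEN + PB, where 5.85% of all tested genes passed as lower. Of 12 tested genes of biliary and progenitor epithelium, which also makes E-cadherin, 7 passed under DEN + PB, all lower in KO, with a median of -1.01. The 4 largest were *Tspan8* (-2.05 ± 0.27), *Epcam* (-1.20 ± 0.29), *Bicc1* (-1.18 ± 0.22) and *Cldn7* (-1.16 ± 0.20), and the summed level of the 18 matched genes was 45.3 to 76.6 in WT and 27.1 to 41.1 in KO DEN + PB livers (linear scale, 1 being the 75th percentile). *Cftr*, *Cldn4*, *Ehf* and *Sctr* were not well above background on any KO DEN + PB array, and *Cldn4* and *Sctr* were not on any WT DEN + PB array. The summed level of 12 leukocyte genes was 68.9 to 85.2 in WT and 31.9 to 44.3 in KO DEN + PB livers. There 8 of 11 tested genes passed, all lower, led by *Lyz2* (-2.02 ± 0.36). *Cd3e* (0.37 ± 0.26) and *Ly6c2* (0.20 ± 0.27) lay above 0 and did not pass. Of 8 endothelial genes 3 passed, all lower in KO (*Clec4g*, *Pecam1* and *Tek*), and the summed level was 37.8 to 46.0 in WT and 20.3 to 23.996 in KO livers. Of 9 stellate and portal fibroblast genes *Lrat*, *Reln* and *Dcn* passed, all lower in KO. The summed level of the 9 was 83.7 to 99.6 in WT and 52.7 to 67.0 in KO livers. *Thy1* (0.19 ± 0.21) and *Acta2* (0.06 ± 0.45) lay above 0 and did not pass. With normexp background correction, where 50 probes passed over the whole array, 0 biliary, 1 leukocyte, 0 endothelial and 0 stellate or fibroblast genes passed. The medians of those lists were then -0.49, -0.84, -0.42 and -0.34. When spots of outlying background were left out of normexp, 1, 7, 2 and 3 genes passed, all lower, with medians of -0.42, -0.97, -0.51 and -0.56. The part of these cell types in the *Cdh1* difference was not tested.

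**Figure D4:**
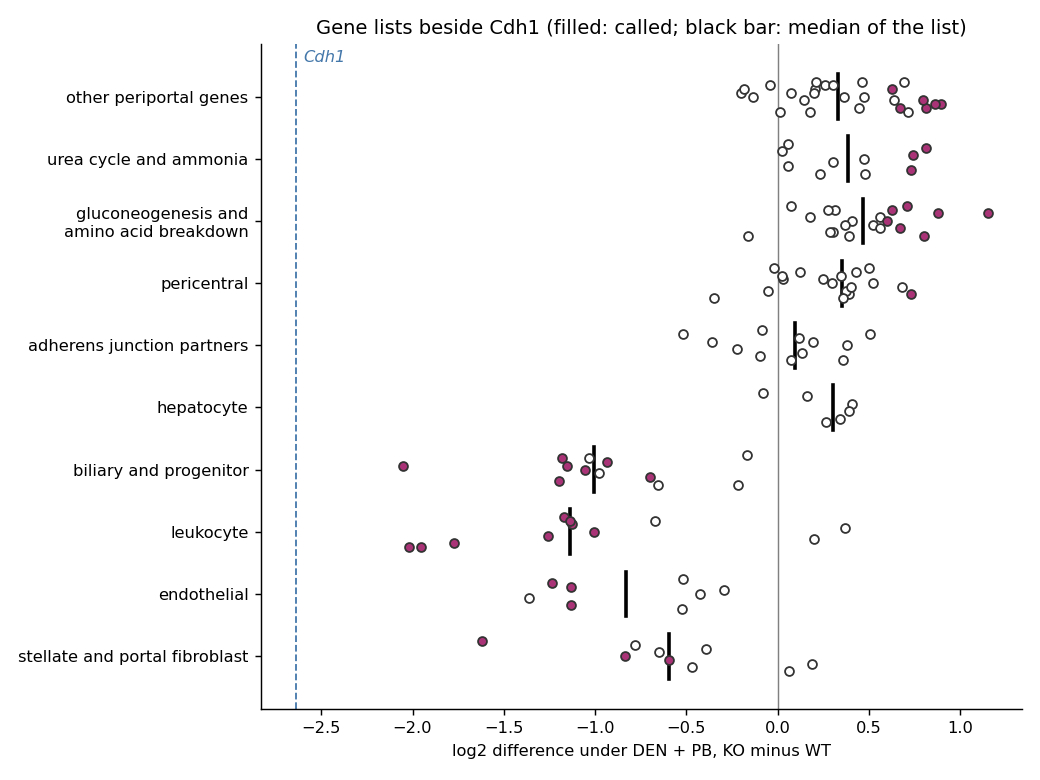
The log2 difference between KO and WT livers under DEN + PB (x axis) for each tested gene of 10 gene lists (y axis), filled where the gene passed the test, with a black bar at the median of the list and a dashed line at the value of *Cdh1* (-2.64). The medians of the periportal lists lie at 0.33, 0.39 and 0.47, and those of the biliary and leukocyte lists at -1.01 and -1.14.

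In the other comparisons *Cdh1* did not pass. With PB in WT livers, where 0.737% of all tested genes passed, 3 biliary genes did, all higher. They were the keratin genes *Krt19* (1.27 ± 0.19) and *Krt7* (1.16 ± 0.23), and *Bicc1* (1.03 ± 0.22), while the median of the list and *Cdh1* were both at 0.71. With PB in KO livers that median and *Cdh1* were at -0.21 and -0.93. Under DEN alone no biliary gene passed and the list had a median of 0.08 for KO against WT, where *Cdh1* was at -0.998 ± 0.55 (adjusted p = 0.323). Without KO DEN replicate 3 that value of *Cdh1* was -0.28, and on the 2 slides with both groups it was 0.68 and -0.85. The low KO DEN replicate 3, with *Cdh1* at -1.68, had a summed biliary level of 36.9, the lowest of the 4 KO DEN arrays (36.9 to 60.6). There *Krt19* was at -2.76 where the other 3 were between -2.32 and -2.18. *Krt7* (-2.21), *Epcam* (-3.72) and *Cldn7* (-2.53) were also at their lowest of that group, but *Tspan8* (-4.235) was not (-4.237 in replicate 1). WT DEN replicates 1 and 4 had summed biliary levels of 39.7 and 40.4, with *Cdh1* at 0.74 and 1.63. The part of biliary cells in the low *Cdh1* value of KO DEN replicate 3 was not tested. On KO DEN replicate 3 *Hal*, *Sds*, *Arg1* and *Ass1* were within the range of the other KO DEN arrays, while *Cps1* and, narrowly, *Gls2* lay outside it.

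Over the 16 arrays the level of *Cdh1* had an r below 0 with every enzyme, except *Cyp2f2* with quantile normalization. Pearson r with *Cdh1* was -0.79 for *Sds*, -0.70 for *Arg1*, -0.64 for *Gls2*, -0.63 for *Hal* and *Ass1*, -0.56 for *Cps1*, -0.27 for *Hsd17b13* and -0.18 for *Cyp2f2*. With quantile normalization r was -0.75 for *Sds*, -0.48 for *Arg1*, -0.56 for *Gls2*, -0.58 for *Hal*, -0.44 for *Ass1*, -0.11 for *Cps1* and -0.13 for *Hsd17b13*, and it turned to 0.16 for *Cyp2f2*. These are descriptions over arrays that share 4 groups. After the group means had been taken off, *Sds* and *Arg1* were at -0.50 and -0.44 and the others between -0.37 and 0.03. The enzymes went with each other: 24 of their 28 pairs had r above 0 with a median of 0.46, and within groups 23 did with a median of 0.19. Of the 8 pairs with *Cdh1* 0 had r above 0, with a median of -0.63.

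**Figure D5:**
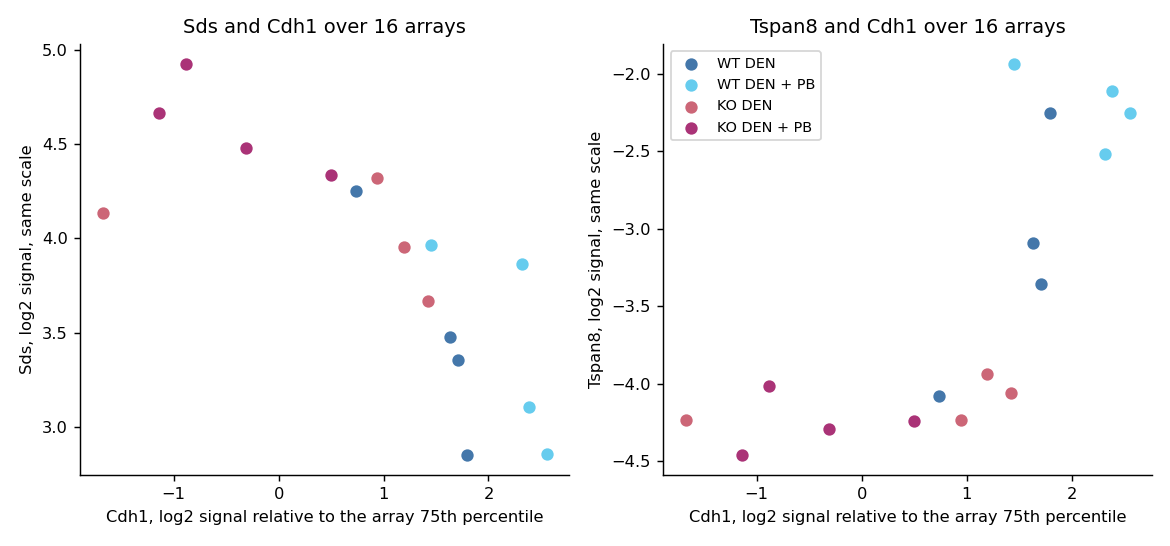
The level of *Sds* (left) and *Tspan8* (right) against that of *Cdh1* on the 16 arrays, all as log2 signals relative to the 75th percentile of the array, coloured by group. *Sds* falls with rising *Cdh1* (r = -0.79), and *Tspan8* is high on the arrays with the highest *Cdh1* (r = 0.75).

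Picked by r from 12169 genes well above background on all 16 arrays, 5 genes had levels most like that of *Cdh1*. They were *Plscr4* (r = 0.87), a membrane phospholipid scramblase family member, *Msn* (0.86), which encodes moesin, a linker of the cell membrane to actin, *Filip1l* (0.84), *Golm2* (0.84) and *Cdkn2b* (0.83), a cell cycle inhibitor. Spearman's rho was 0.91, 0.88, 0.89, 0.83 and 0.87 in the same order, and r stayed between 0.76 and 0.88 without the 2 arrays farthest from the median of *Cdh1*. These values come from the same arrays that picked the genes, so they describe the choice and do not test it. With quantile normalization *Plscr4* was at rank 7 and *Cdkn2b* at rank 11. Within groups r was 0.48 to 0.65 for these genes, of which *Plscr4* and *Msn* stood highest. Among the biliary genes *Tspan8* (0.75), *Epcam* (0.74) and *Cldn7* (0.69) had the highest r with *Cdh1*, and *Krt19* was at 0.47.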

How the data were processed

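RNA from 16 mouse livers was hybridised to 1-colour (Cy3) Agilent whole mouse genome arrays, 4 per slide on 4 slides scanned on 1 day. The deposited scanner files, written by Feature Extraction 12.0.3.1 per the file headers, hold the processed signal of each spot as a linear intensity that the authors' software had corrected for background, with no scaling between arrays. A deposited series table held the same intensity values averaged per probe, to within 0.0005%. The normalization used by the study before its ANOVA is not given in the sources used here. All 41174 probes were present, and 28223 were named by matching accessions to RefSeq (GRCm38.p6), for 19096 genes.

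Spots of a probe were averaged, log2 was taken and the 75th percentile of each array was subtracted (it was 137 to 294 on the linear scale). A probe was tested if, in 1 or more groups, all 4 arrays were well above background, which left 24455 probes. They were fitted with limma 3.58.1 (R 4.3.3) on 4 group means over 16 arrays, two-sided, with the Benjamini-Hochberg adjustment. A gene was taken by its brightest tested probe and called at an adjusted p under 0.05 and 1.5-fold. The fit was tested on simulated data. Exact permutation tests used 70 assignments and are two-sided. Each group was 4 mice, so p-values measure the spread between animals.

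The members and gene lists were chosen with earlier results of these data known. Named were the members, up to 4 called genes with the largest change per list and comparison, the 5 genes with the highest r with *Cdh1*, and *Gadd45b* and *Cyp2b10* as checks. Alternatives were background correction (normexp with offset 50, with or without spots of outlying background, run on median spot signals because mean signals were not in the scanner files), quantile or no scaling, no filter, no moderation, 8 arrays only, slide or replicate block, and single arrays left out. The within-array differences and the summed list levels were added after the data had been seen.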

Additional observations from a re-analysis of the deposited data

Results flagged for a closer look

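Among 36 sets of 4 arrays (9 members in 4 groups), 3 held an array far from the other 3 by Dixon's criterion at the 95% level, which chance gives in about 1 of 20 sets. *Cdh1* was at 0.74 in WT DEN replicate 1, where the other 3 arrays were between 1.63 and 1.79. *Cdh1* was at -1.68 in KO DEN replicate 3, where the others were between 0.94 and 1.42. All 10 spots of the probe on that array were well above background, with signals from 63.0 to 83.7 in the linear unit of the scanner, and their mean of 74.0 was the lowest of the series. *Hsd17b13* was at 4.45 in KO DEN replicate 2, where the others were between 5.12 and 5.24. No explanation of these arrays was tested.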

How the results depend on the processing

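The direction of the *Cdh1* difference under DEN + PB held under all 25 alternatives run, and its call was lost under normexp alone (-2.02, adjusted p = 0.0799). The count of members called there, 5, became 0 with normexp, 3 with quantile normalization and 1 with the unscaled series table, and *Sds* lost its call without a filter (adjusted p = 0.0575) and without moderation (0.0517). Over all probes tested, 50 passed with normexp, 1626 with quantile normalization and 1523 unscaled, beside 1648 with the main processing. With normexp without outlying background, 4 members passed higher and 1 lower. The cause was not tested. With single arrays left out, 4 to 5 members were called under DEN + PB, 0 to 1 for PB in KO livers, and 0 elsewhere. *Cdh1* then ran from 0.47 to 0.95 (PB in WT), -1.65 to -0.61 (PB in KO), 1.32 to 2.36 (difference of PB responses), -1.32 to -0.28 (genotype under DEN) and -2.96 to -2.41 (genotype under DEN + PB). Other members changed sign only in comparisons where they were not called.

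For PB in WT *Sds* turned to 0.021 (quantile), 0.067 (unscaled) and 0.029 (slide block). For PB in KO *Cyp2f2* and *Arg1* turned to -0.017 and -0.10 (normexp), -0.010 and -0.098 (normexp without outlying background), -0.088 and -0.11 (quantile) and -0.23 and -0.29 (unscaled), *Cps1* to -0.032 (quantile) and -0.22 (unscaled), and *Arg1* and *Ass1* to -0.054 and 0.0096 (slide block). For the difference of PB responses *Cyp2f2* turned to 0.072 (quantile), and *Hal*, *Cyp2f2*, *Arg1* and *Cps1* to 0.096, 0.20, 0.033 and 0.062 (unscaled). For genotype under DEN *Cyp2f2* and *Cps1* turned to 0.20 and 0.21 (normexp) and 0.0045 and 0.026 (unscaled), and *Cyp2f2* to 0.026 (slide block). For genotype under DEN + PB *Hsd17b13* turned to 0.10 (normexp), *Cyp2f2* to -0.081 (quantile) and -0.19 (unscaled), and *Cps1* to -0.036 (unscaled). With single arrays left out, signs changed for *Sds* with PB in WT (-0.25 to 0.22), for *Gls2* (-0.17 to 0.019), *Hal* (-0.23 to 0.04), *Arg1* (-0.032 to 0.040), *Ass1* (-0.093 to 0.0063) and *Hsd17b13* (-0.22 to 0.17) with PB in KO, for *Arg1* (-0.0002 to 0.19) and *Cps1* (-0.11 to 0.0048) under DEN, and for *Hsd17b13* (-0.16 to 0.18) under DEN + PB.

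Replicate numbers did not pair the arrays: the deviations of same-numbered arrays correlated at -0.21 to 0.36 (median 0.01), and with the replicate block 5 members were called under DEN + PB and 0 elsewhere. The mean of all probes of a gene was not run, since each member has 1 probe. The 4 arrays per group bound the precision, and a 1-spot probe has no check within the array.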

Other observations

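Of the 18 pericentral genes, 1 passed the test for PB in WT and 2 in KO livers, where 0.737% and 2.13% of all tested genes did. *Rhbg*, an ammonium transporter of pericentral hepatocytes, was higher with PB by 1.92 ± 0.39 in WT (adjusted p = 0.0286) and 1.79 ± 0.39 in KO livers (adjusted p = 0.0257). *Cyp1a2*, a pericentral cytochrome P450, passed in KO livers (1.03 ± 0.24, adjusted p = 0.0369). Of the biliary list *Pkhd1*, a gene of the primary cilium, passed in KO livers with a response of -0.81.

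Under DEN alone no member and 2.76% of all tested genes passed. There *Sdsl*, a relative of *Sds*, was higher in KO livers by 0.88 ± 0.17 (adjusted p = 0.013). Of 11 leukocyte genes 4 passed as lower: *Adgre1* (-1.94 ± 0.33), *Cd68* (-1.35 ± 0.20), *Cd5l* (-1.003 ± 0.26) and *Csf1r* (-0.73 ± 0.19), all known from macrophages. The summed leukocyte level was 53.8 to 134 in WT DEN and 35.4 to 47.6 in KO DEN livers. The endothelial genes *Clec4g* (-0.96 ± 0.20) and *Pecam1* (-0.67 ± 0.16) were lower as well. The 3 erythroid genes tested gave no call in any comparison. Within groups, the genes with the highest r with *Cdh1* were *Cspg5* (0.85) and *Smim22* (0.79), whose r over all 16 arrays was 0.25 and -0.09.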
